A study of Mus musculus with 12 samples.

Results

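The genes described here are 40 genes of DNA replication and mitosis in the mouse thymus. They are a fixed list of gene symbols, 23 that serve S phase (Mcm2 to E2f1) and 17 that serve G2 and M phase (Mki67 to Plk4), and the estimated counts of all transcripts with the same symbol were summed in the mRNA table. All 40 were among its 23508 symbols and passed the filter on low counts, which left 15199 genes tested. The thymuses came from male wild type C57BL/6 mice that received no treatment, taken at 2 weeks (2W), 6 weeks (6W) and 3 months (3M) of age, with 2 biological replicates an age and 1 RNA library from each. Whole thymus was used, so each library mixes thymocytes with epithelial, stromal, blood and fat cells. In bulk RNA of this kind, fewer cells of a type and less RNA per cell cannot be told apart. The comparisons ask how the thymus differs between its growth at 2W, its full size at 6W and the start of its shrinkage at 3M.

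A dividing cell first licenses its replication origins with the MCM helicase, then opens them and copies its DNA in S phase, and later condenses and separates the chromosomes under cyclin B and Cdk1, the aurora and polo kinases and the spindle checkpoint. In the thymus most division takes place in immature thymocytes, before and just after they become CD4 and CD8 double positive (DP), and small resting DP cells make up most of the organ. S phase genes are classically switched on by E2F factors, while many G2 and M phase genes carry CCAAT boxes, bound by NF-Y, and a cell cycle homology region (CHR), read by the DREAM and MuvB complexes.

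Depth was 16519753 to 22553481 estimated counts a library. Levels are given as counts per 1000000 (CPM) after scaling by the trimmed mean of M values, and the markers of DP thymocytes, Rag1, Cd4 and Cd8a among them, summed to 13860 to 19070 CPM. No gene of the 9 cell type lists was at 0 in any library. One library stood apart. In 3M replicate 2 the red blood cell markers summed to 2168 CPM, against 402 to 816 in the other 5. Transcripts assembled by the authors took a larger share of all counts in 2W replicate 2 (13.5%) and 3M replicate 1 (14.0%) than in the other 4 libraries (11.2% to 12.2%).

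The promoters of the genes are shown first, since they set the phases apart whatever the age. RefSeq (GRCm38.p6) gave a window from 250 bases before to 50 bases after the gene start for 32 of the 40 genes, and there was none for Mcm4, Gins1, Gins2, Pole, Ccne2, Ccna2, Aurkb and Tpx2. The letters searched for on both strands were TTTCCCGC, TTTGGCGC and TTTCGCGC for E2F, CCAAT for NF-Y, and TTTGAA and TTCGAA for CHR. The E2F words can overlap each other, and overlapping matches in 1 gene count once. Any E2F word was present in 7 of 18 S phase genes (38.9%) and in 1 of 14 G2 and M phase genes (7.14%), against 2.12% of all 27025 genes with a window. CHR letters showed the opposite order, in 4 of the 18 S phase genes (22.2%) and 10 of the 14 G2 and M phase genes (71.4%), against 21.7% of all genes. CCAAT was frequent in both, in 12 of 18 and 12 of 14, against 41.1%. All 10 G2 and M phase genes with CHR letters also held CCAAT in the same window, which 8.61% of all genes did. A match is a run of letters and not a measured binding site.

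The next 5 sequences are the 200 bases before the start of the S phase genes with an E2F word in that stretch of their first window, written 5′ to 3′ on the gene's strand. They are shown beside the mitotic set that follows. Capitals mark every match to E2F, CCAAT or CHR letters on either strand.
Mcm5, chr8:75109309-75109508, plus strand: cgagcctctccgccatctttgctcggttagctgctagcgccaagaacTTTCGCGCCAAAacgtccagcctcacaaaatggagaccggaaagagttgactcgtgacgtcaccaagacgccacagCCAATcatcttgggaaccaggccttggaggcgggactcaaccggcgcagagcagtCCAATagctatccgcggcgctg
Mcm6, chr1:128359706-128359905, minus strand: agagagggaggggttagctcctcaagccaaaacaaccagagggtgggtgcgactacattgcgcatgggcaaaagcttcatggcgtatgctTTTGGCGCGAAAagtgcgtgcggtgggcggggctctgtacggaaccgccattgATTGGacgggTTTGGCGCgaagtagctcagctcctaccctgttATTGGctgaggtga
Mcm7, chr5:138171884-138172083, minus strand: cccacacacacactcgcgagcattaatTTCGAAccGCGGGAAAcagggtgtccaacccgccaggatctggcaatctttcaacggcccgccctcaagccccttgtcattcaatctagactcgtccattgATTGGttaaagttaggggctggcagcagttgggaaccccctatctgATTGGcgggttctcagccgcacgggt
Cdc6, chr11:98907951-98908150, plus strand: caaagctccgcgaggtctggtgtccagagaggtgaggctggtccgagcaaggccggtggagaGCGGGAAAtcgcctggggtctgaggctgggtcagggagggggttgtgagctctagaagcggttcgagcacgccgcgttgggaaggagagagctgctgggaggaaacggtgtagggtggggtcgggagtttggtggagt
Pola1, chrX:93632156-93632355, minus strand: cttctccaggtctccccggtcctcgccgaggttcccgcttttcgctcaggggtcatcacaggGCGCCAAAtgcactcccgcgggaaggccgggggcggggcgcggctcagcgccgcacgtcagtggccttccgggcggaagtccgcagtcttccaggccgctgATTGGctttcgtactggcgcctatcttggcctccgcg
The MCM helicase genes Mcm5 and Mcm6 each hold 2 E2F words on opposite strands that share letters, at -153 and -149 in Mcm5 and at -110 and -106 in Mcm6. Mcm6 has another at -47. Cdc6, which loads the helicase, and Pola1, the catalytic subunit of the primase polymerase, each hold 1 word at -138. Mcm7 holds an E2F word at -165 and, unlike the other 4 stretches, CHR letters, at -173. Uhrf1 has an E2F word at -185 of its second window, and the E2F words of Mcm3 lie after the start.

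The last 7 sequences are the same stretch of the G2 and M phase genes that hold both CCAAT and CHR letters in it.
Mki67, chr7:135716380-135716579, minus strand: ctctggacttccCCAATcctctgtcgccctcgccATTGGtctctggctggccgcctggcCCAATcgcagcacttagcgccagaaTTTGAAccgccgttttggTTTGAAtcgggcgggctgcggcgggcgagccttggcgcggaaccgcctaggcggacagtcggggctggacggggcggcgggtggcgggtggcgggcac
Top2a, chr11:99024190-99024389, minus strand: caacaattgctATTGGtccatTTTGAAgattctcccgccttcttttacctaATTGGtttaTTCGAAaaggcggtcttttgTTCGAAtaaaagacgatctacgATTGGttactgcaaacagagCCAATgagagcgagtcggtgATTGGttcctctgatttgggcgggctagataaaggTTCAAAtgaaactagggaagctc
Ccnb2, chr9:70421555-70421754, minus strand: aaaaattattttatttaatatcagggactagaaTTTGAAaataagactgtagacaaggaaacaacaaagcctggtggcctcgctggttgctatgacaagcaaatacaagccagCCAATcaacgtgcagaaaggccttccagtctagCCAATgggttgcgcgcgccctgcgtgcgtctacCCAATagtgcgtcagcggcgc
Cdk1, chr10:69352913-69353112, minus strand: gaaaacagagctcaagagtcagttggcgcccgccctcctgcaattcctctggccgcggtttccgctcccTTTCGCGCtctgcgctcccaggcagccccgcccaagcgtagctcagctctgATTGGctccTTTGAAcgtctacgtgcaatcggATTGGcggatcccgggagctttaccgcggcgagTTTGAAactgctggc
Bub1b, chr2:118598011-118598210, plus strand: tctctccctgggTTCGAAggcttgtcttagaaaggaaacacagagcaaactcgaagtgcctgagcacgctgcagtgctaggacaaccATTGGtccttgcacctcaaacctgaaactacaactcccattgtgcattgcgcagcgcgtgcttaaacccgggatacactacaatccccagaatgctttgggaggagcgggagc
Cdc20, chr4:118437344-118437543, minus strand: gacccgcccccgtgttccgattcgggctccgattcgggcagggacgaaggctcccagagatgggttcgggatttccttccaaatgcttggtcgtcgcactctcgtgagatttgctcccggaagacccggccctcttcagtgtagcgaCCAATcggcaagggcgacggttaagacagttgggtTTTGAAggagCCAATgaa
Kif11, chr19:37376182-37376381, plus strand: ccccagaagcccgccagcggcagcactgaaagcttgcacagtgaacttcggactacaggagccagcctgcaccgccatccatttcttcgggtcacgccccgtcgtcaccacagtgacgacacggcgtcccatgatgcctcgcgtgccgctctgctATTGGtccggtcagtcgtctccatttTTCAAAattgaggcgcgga
Kif11, the motor that pushes the spindle poles apart, and Cdc20, which activates the anaphase promoting complex, hold CHR letters at -19 and -18, with a CCAAT at -45 in Kif11 and at -53 in Cdc20. Cdk1, the mitotic kinase, holds CHR letters at -71 and -15 and an E2F word at -131, the one such word in the 14 mitotic genes. Top2a, the topoisomerase that untangles sister chromosomes, holds CHR letters at 4 places in this stretch, and Mki67, which coats mitotic chromosomes, holds them at -116 and -98. In this stretch Ccnb2 and Bub1b hold CHR letters at -167 and -188, and each holds them again after the start, at 5 and 41.

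**Figure D1:**
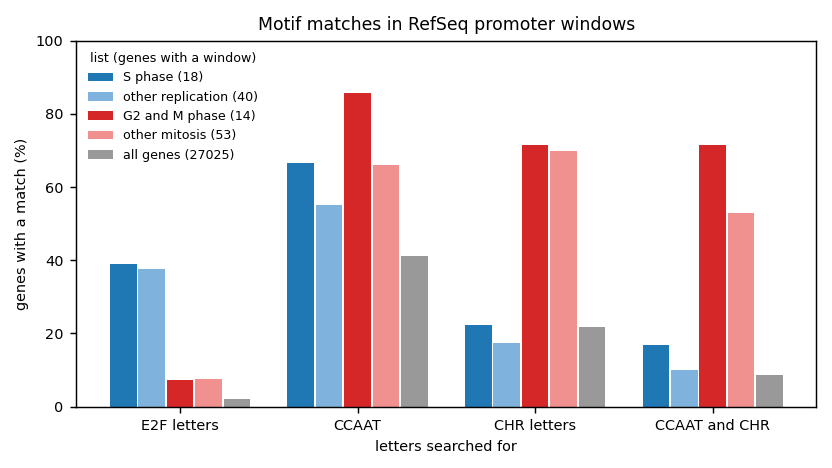
The share of genes (%, vertical axis) whose RefSeq promoter window holds each set of letters (horizontal axis), for S phase genes (18 with a window), other replication genes (40), G2 and M phase genes (14), other mitosis genes (53) and all genes (27025). Among the lists shown, E2F letters are most frequent in the 2 replication lists (38.9% and 37.5%), and CHR letters in the 2 mitosis lists (71.4% and 69.8%).

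The same split held for genes outside the list. Among 47 other replication genes, 40 had a window, and 15 of those (37.5%) held an E2F word and 7 (17.5%) CHR letters. Among 64 other mitosis genes, 53 had a window, and 4 of those (7.55%) held an E2F word and 37 (69.8%) CHR letters. CCAAT was present in 22 of the 40 and 35 of the 53. Of 16 G1 cyclins, kinases and E2F partners, 11 had a window, and 5 of those (45.5%) held an E2F word and 4 (36.4%) CHR letters.

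Levels between genes are compared per length, as the summed FPKM of a gene's transcripts averaged over the 6 libraries. Pcna, the sliding clamp of the polymerases, was the highest at 287 FPKM, followed by Top2a at 233 and Rrm2, the regulated subunit of ribonucleotide reductase, at 167. Uhrf1, which carries DNA methylation through replication, and Mcm7 were nearly level at 149 and 148 FPKM. The lowest were Gins2 of the CMG helicase at 4.98, the activator E2f1 at 8.34, Ccne1 (cyclin E1) at 8.81 and Cenpe, the kinetochore motor, at 11.2 FPKM. The 40 genes together took 0.986% and 1.01% of all estimated counts at 2W, 0.836% and 0.825% at 6W, and 0.791% and 0.724% at 3M, so the 3 ages did not overlap. The lowest count of any of the genes in a library was 239.9, for Gins1 in 3M replicate 1.

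From 2W to 6W all 40 genes were fitted lower, with similar medians for S phase and mitotic genes, a likeness that was not itself tested. The median log2 fold change was -0.31 over the 23 S phase genes and -0.34 over the 17 G2 and M phase genes, against -0.0049 over all genes tested. In 37 of the 40 both 6W libraries lay below both 2W libraries, which 29.3% of all genes tested did. The exceptions were Fen1, the flap endonuclease, Rfc4 of the clamp loader, and Plk1. At an unadjusted p under 0.05, 17 of the 40 were lower (10 S phase and 7 mitotic), against 7.14% of all genes tested, and none was higher. This count was 6 without 2W replicate 2, 4 without either 6W library and 26 without 3M replicate 2. After adjustment over all genes by edgeR's quasi-likelihood test none of the 40 passed, where 0.125% of genes tested were called lower. DESeq2 called 823 genes in either direction, 5 of them members and all S phase genes.

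**Figure D2:**
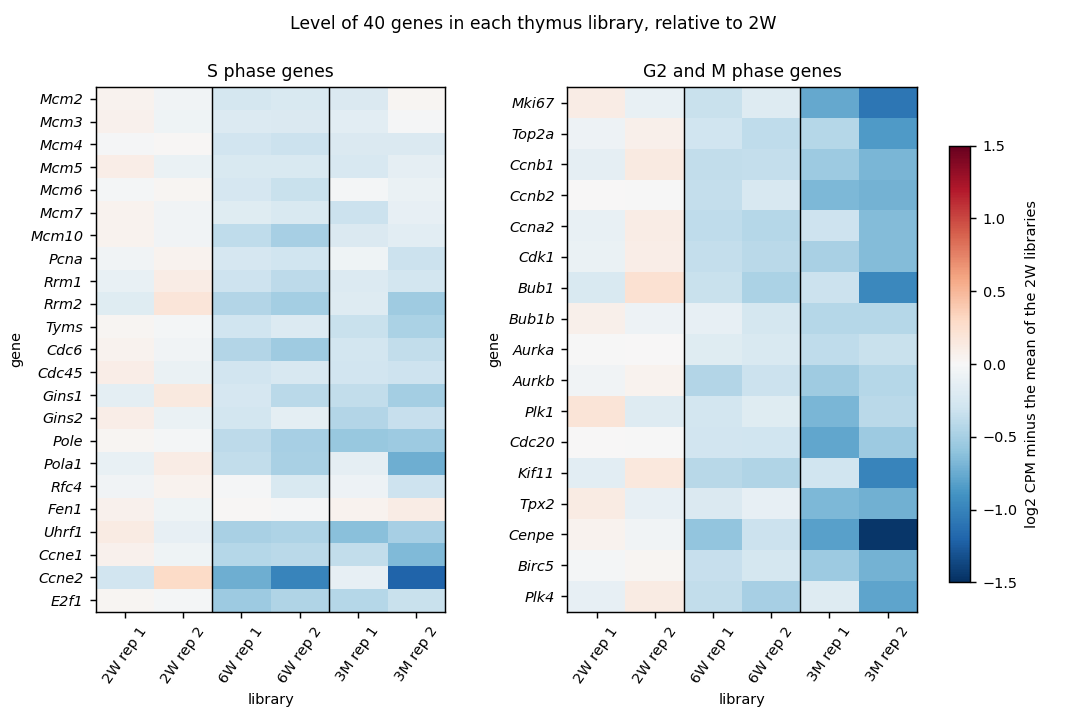
Level of each gene (rows) in each of the 6 libraries (columns), as log2 CPM minus the mean of the 2W libraries, with blue for lower and red for higher. At 6W both panels are pale blue alike, and at 3M the G2 and M phase panel is darker than the S phase panel.

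Among the S phase genes with the smallest p in this step, Cdc6 had 76.8 and 71.1 CPM at 2W and 54.5 and 51.1 at 6W. Its log2 fold change was -0.48 (SE 0.11, edgeR adjusted p = 0.102). E2f1, which drives S phase genes including its own, had 30.7 and 29.3 CPM at 2W and 20.6 and 21.9 at 6W, a log2 fold change of -0.50 (SE 0.11, edgeR adjusted p = 0.104). Neither gene overlapped between the ages. Pole, the leading strand polymerase, had 142.7 and 137.2 CPM against 107.0 and 99.2 (log2 fold change -0.44, SE 0.10, edgeR adjusted p = 0.107). Mcm10, which activates the helicase, had 68.9 and 64.1 CPM against 51.1 and 47.1 (log2 fold change -0.44, SE 0.11, edgeR adjusted p = 0.124). The fitted changes of these 4 ran from -26.2% to -29.2%, and none passed adjustment.

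The mitotic genes with the smallest p had log2 fold changes between -0.30 and -0.38. Aurkb, the kinase that corrects chromosome attachment, had 99.0 and 106.1 CPM at 2W and 75.6 and 81.9 at 6W (log2 fold change -0.38, SE 0.11, edgeR adjusted p = 0.166). Cdk1 had 132.1 and 152.0 CPM against 110.5 and 107.5 (log2 fold change -0.38, SE 0.12, edgeR adjusted p = 0.197). Its partners Ccnb2 (cyclin B2) and Ccnb1 (cyclin B1) had log2 fold changes of -0.30 (SE 0.10, edgeR adjusted p = 0.213) and -0.37 (SE 0.13, edgeR adjusted p = 0.215). Ccnb2 had 107.9 and 106.7 CPM at 2W and 83.7 and 90.6 at 6W, and Ccnb1 had 182.5 and 218.9 against 155.1 and 155.5. All 4 lay apart between the ages. The remaining genes of the list ran from -0.88 in Ccne2 (cyclin E2, SE 0.37) to -0.0044 in Fen1.

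From 6W to 3M the fitted directions of the phases were unlike, a difference that was not itself tested. All 17 G2 and M phase genes were fitted lower, with a median log2 fold change of -0.25, while the 23 S phase genes split into 14 fitted higher and 9 lower with a median of 0.084, against 0.023 over all genes tested. The S phase median was -0.014 when 3M replicate 1 was left out and 0.0084 when 3M replicate 2 was, so its sign rested on which libraries were used. In 12 of the 17 mitotic genes and 5 of the 23 S phase genes both 3M libraries lay below both 6W libraries, as in 23.2% of all genes tested, and 9 S phase genes lay above, as in 25.6%. At an unadjusted p under 0.05, 6 mitotic genes were lower, against 6.25% of all genes tested. These were Mki67, Tpx2, Ccnb2, Cdc20, Cenpe and Birc5. Mcm6 alone was higher, against 7.42%. The sum of 7 was 4 without 6W replicate 1 and 2 without 6W replicate 2. No gene of the whole table passed adjustment by edgeR in this comparison (0.0% of genes tested), while 950 were lower and 1128 higher at an unadjusted p under 0.05. DESeq2 called 332 genes, 3 of them members and all mitotic.

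The 6W libraries held 1051 and 1159 CPM of Mki67 and the 3M libraries 779.3 and 627.1 (log2 fold change -0.65, SE 0.14, edgeR adjusted p = 0.248). Tpx2, which activates Aurka on the spindle, had 166.1 and 177.2 CPM against 121.6 and 117.5 (log2 fold change -0.52, SE 0.12, edgeR adjusted p = 0.255). Neither overlapped between 6W and 3M. Ccnb2 had 67.5 and 65.9 CPM at 3M (log2 fold change -0.39, SE 0.10, edgeR adjusted p = 0.263), and Cdc20 had 119.1 and 117.5 CPM at 6W and 84.2 and 99.5 at 3M (log2 fold change -0.36, SE 0.12, edgeR adjusted p = 0.302). Of the S phase genes, Mcm6 had 352.1 and 332.5 CPM at 6W and 410.8 and 393.1 at 3M, just under the 411.7 and 428.6 of 2W (log2 fold change 0.23, SE 0.093, edgeR adjusted p = 0.361). Mcm10 had 57.1 and 59.6 CPM at 3M (log2 fold change 0.25, SE 0.11, edgeR adjusted p = 0.378), and Cdc6 had 61.1 and 57.3 (log2 fold change 0.16, SE 0.11, edgeR adjusted p = 0.520). Both stood above their 6W values and below their 2W values. Tyms, thymidylate synthase, went the other way, with 81.1 and 86.1 CPM at 6W and 78.9 and 71.8 at 3M (log2 fold change -0.15, SE 0.11, edgeR adjusted p = 0.562), and its sign turned to 0.11 when assembled transcripts were left out.

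Averaged over genes on the log2 scale and set to 0 at 2W, the S phase genes stood at -0.32 and -0.36 in the 6W libraries and at -0.25 and -0.35 in the 3M libraries. The mitotic genes stood at -0.33 and -0.32 at 6W and at -0.52 and -0.73 at 3M. The mitotic mean minus the S phase mean lay between -0.025 and 0.041 in the 2W and 6W libraries and was -0.27 and -0.38 in 3M replicates 1 and 2. The gap of -0.38 was in the library with the high red blood cell markers, 3M replicate 2. Whether blood content had a part in the gaps was not tested. These means are a description with 2 libraries an age.

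**Figure D3:**
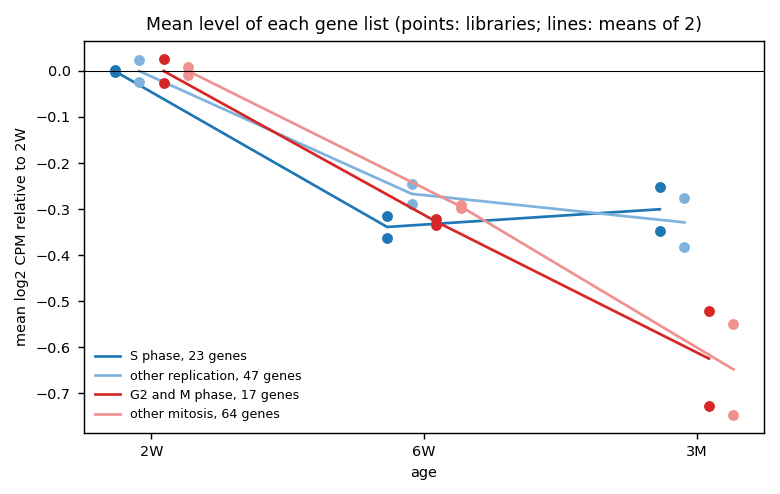
Mean log2 CPM relative to 2W (vertical axis) of 4 gene lists at each age (horizontal axis), with points for libraries and lines through the means of 2. At 3M both mitosis lists lie between -0.52 and -0.75 and both replication lists between -0.25 and -0.38.

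From 2W to 3M 11 of the 40 genes fell, at an edgeR adjusted p under 0.05, and none rose. They were 9 of the 17 G2 and M phase genes and 2 of the 23 S phase genes, against 2.63% of all genes tested called lower. At an unadjusted p under 0.05, 16 mitotic genes (all but Plk4) and 9 S phase genes were lower, against 10.2%. Both 3M libraries lay below both 2W libraries in 17 of 17 mitotic and 19 of 23 S phase genes, against 23.8%, and the 4 that overlapped were Mcm2, Mcm3, Fen1 and Ccne2. The median log2 fold change was -0.62 over the mitotic and -0.30 over the S phase genes, with -0.025 over all genes tested. The study's own threshold, an unadjusted p under 0.05 and a log2 fold change beyond 1, took 1 gene, Cenpe, against 1.71%, and took 2 genes when 2W replicate 2 was left out, 3 when 3M replicate 1 was and 0 when 3M replicate 2 was. The number of calls depended on which libraries were in the fit. The count was 0 without any 1 of the 2W or 6W libraries, 10 without 3M replicate 1 and 5 without 3M replicate 2, and 0 when the 6W libraries were not in the fit. It was 8 with total counts as the only scaling, where Uhrf1 was among those lost (edgeR adjusted p = 0.0582). DESeq2 called 18, of which 15 were mitotic and 3 S phase. The 2.63% above is the edgeR share, and no DESeq2 share of all genes is given beside these 18.

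**Figure D4:**
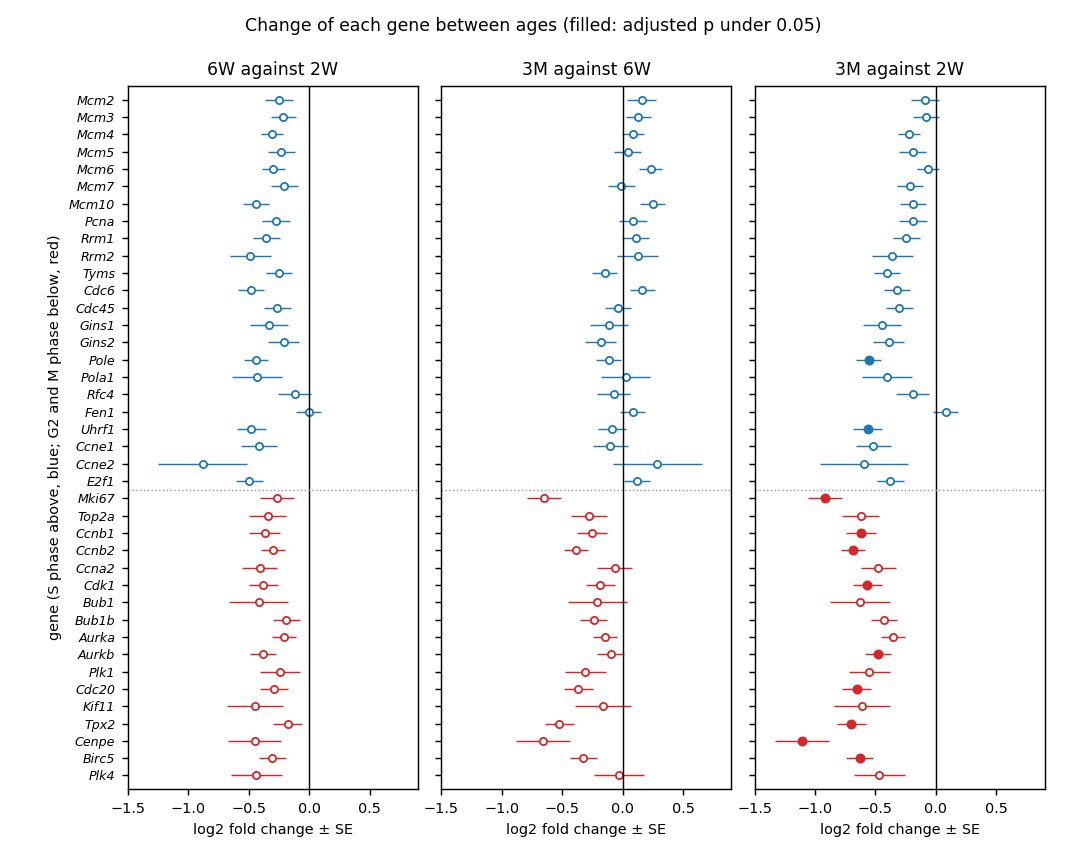
Log2 fold change (horizontal axis) with its standard error for each gene (rows) in the 3 comparisons, S phase genes in blue and G2 and M phase genes in red, filled where the edgeR adjusted p was under 0.05. The filled points are in the comparison of 3M with 2W, 9 red and 2 blue, from -0.48 in Aurkb to -1.11 in Cenpe.

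The 3 largest drops were in genes of the chromosome and the spindle. Cenpe, which carries chromosomes to the spindle equator, had 135.4 and 126.6 CPM at 2W, 87.1 and 104.6 at 6W, and 74.2 and 47.5 at 3M. It fell by 1.11 on the log2 scale (SE 0.22, edgeR adjusted p = 0.0339). Mki67 had 1429 and 1232 CPM at 2W and fell by 0.92 (SE 0.14, edgeR adjusted p = 0.0183). Tpx2 had 210.5 and 177.7 CPM at 2W and fell by 0.70 (SE 0.12, edgeR adjusted p = 0.0242), and Birc5 (survivin, of the chromosomal passenger complex) went from 92.1 and 96.6 CPM over 74.3 and 78.4 to 64.5 and 57.5, and fell by 0.63 (SE 0.11, edgeR adjusted p = 0.0251). In all 4 genes the libraries of the 3 ages followed in order without overlap, in Tpx2 only just (177.7 CPM at 2W and 177.2 at 6W). These 4 were picked for their drop from 2W to 3M, and the share of all genes with such an order was not counted. Top2a had 1567 and 1747 CPM at 2W, 1341 and 1271 at 6W and 1234 and 919.4 at 3M, with a log2 fold change of -0.62 (SE 0.15, edgeR adjusted p = 0.0574). Kif11 had a like log2 fold change of -0.61 with a wider error (SE 0.23), and its 3M libraries stood at 352.2 and 218.3 CPM.

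The cyclins and kinases of mitosis followed. Ccnb2 fell by 0.69 (SE 0.10, edgeR adjusted p = 0.0174). Ccnb1 had 136.9 and 124.3 CPM at 3M and fell by 0.62 (SE 0.13, edgeR adjusted p = 0.0346). Cdk1 had 101.5 and 90.2 CPM at 3M and fell by 0.57 (SE 0.12, edgeR adjusted p = 0.0403), and Aurkb had 70.7 and 76.3 and fell by 0.48 (SE 0.11, edgeR adjusted p = 0.0474). Cdc20 had 145.2 and 144.4 CPM at 2W and fell by 0.66 (SE 0.12, edgeR adjusted p = 0.0258). Plk1, which acts from mitotic entry to exit, had 109.4 and 83.6 CPM at 2W, 79.2 and 84.0 at 6W and 59.4 and 72.3 at 3M. Its log2 fold change of -0.55 did not pass (SE 0.17, edgeR adjusted p = 0.101), and its replicates lay far apart. The other mitotic genes that did not pass were Ccna2 (cyclin A2), Bub1 and Bub1b of the spindle checkpoint, Aurka of the centrosome and Plk4, which starts centriole copying, with log2 fold changes of -0.35 to -0.63.

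Of the S phase genes, Pole and Uhrf1 fell from 2W to 3M. Pole had 94.4 and 95.9 CPM at 3M and fell by 0.56 (SE 0.10, edgeR adjusted p = 0.0267). Uhrf1 had 638.3 and 534.0 CPM at 2W, 416.6 and 425.2 at 6W and 378.4 and 414.2 at 3M. It also fell by 0.56 (SE 0.12, edgeR adjusted p = 0.0391). In both, the libraries of 6W and 3M lay well under those of 2W. The controllers of S phase entry did not pass. Ccne1 had 23.1 and 21.0 CPM at 2W, then 16.4 and 16.6, and 17.0 and 13.8 by 3M (log2 fold change -0.52, SE 0.15, edgeR adjusted p = 0.0844), and E2f1 had 22.4 and 23.8 CPM at 3M (log2 fold change -0.38, SE 0.11, edgeR adjusted p = 0.0919).

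The enzymes of nucleotide supply and the clamp did not pass either. Tyms had 102.0 and 97.2 CPM at 2W (log2 fold change to 3M -0.40, SE 0.11, edgeR adjusted p = 0.0715). Rrm2 had 413.9 and 536.7 CPM at 2W, 348.2 and 330.1 at 6W and 412.9 and 326.5 at 3M (log2 fold change -0.36, SE 0.17, edgeR adjusted p = 0.241). Pcna had 502.6 and 537.2 CPM at 2W, 436.9 and 422.9 at 6W and 496.6 and 415.1 at 3M (log2 fold change -0.19, SE 0.12, edgeR adjusted p = 0.361). For Rrm2 and Pcna the 3M libraries reached from just under the 6W values to close to the 2W values.

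The 6 subunits of the MCM ring, Mcm2 to Mcm7, had log2 fold changes from 2W to 3M of -0.22 to -0.064, and none had an unadjusted p under 0.05. In Mcm4, Mcm5, Mcm6 and Mcm7 both 3M libraries lay below both 2W libraries, and in Mcm2 and Mcm3 they overlapped. Mcm2 had 283.8 and 262.7 CPM at 2W, 226.8 and 232.8 at 6W and 234.6 and 278.5 at 3M. Its log2 fold change of -0.091 (SE 0.12, edgeR adjusted p = 0.682) turned to 0.053 without 3M replicate 1. Fen1 was the one gene fitted above 2W, at 0.081 (SE 0.10). The other S phase genes were Mcm10, Cdc6, Pola1, Rfc4, Ccne2, Rrm1, the large subunit of ribonucleotide reductase, and Cdc45, Gins1 and Gins2, which join the MCM ring in the moving helicase. Their log2 fold changes ran from -0.59 in Ccne2 to -0.19 in Mcm10, and Cdc6, Cdc45, Gins1 and Gins2 had an unadjusted p under 0.05.

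Genes of the same pathways outside the list were followed by 4 further lists, which, like the members, were drawn up with earlier results of these data known. None of the genes in these lists passed the edgeR adjustment from 2W to 6W or from 6W to 3M. There 45 and 45 of the 140 had an unadjusted p under 0.05 in either direction, against 18.0% and 13.7% of all genes tested. DESeq2, which called more genes than edgeR over the whole table in both steps, called 11 and 9. Of 64 other mitosis genes, 31 fell from 2W to 3M and none rose, against 2.63% of all genes tested called lower, with a median log2 fold change of -0.66. The smallest p belonged to Ckap2l of the spindle (-0.85), Dlgap5 of the kinetochore fibres (-0.83), the kinesin Kif14 (-0.81), Ncaph of condensin (-0.69), Racgap1 of the central spindle (-0.68) and Prc1, which bundles midzone microtubules (-0.76). From 6W to 3M 33 of the 64 were lower at an unadjusted p under 0.05, against 6.25%, and 61 were fitted lower. Ckap2l was at -0.55 and the condensin subunit Ncapd2 at -0.56. Ncapd2 averaged 784 FPKM over the 6 libraries, against 14.0 (Ncapg) to 88.8 (Smc4) in the other condensin genes listed. The reason for its high level was not tested. From 2W to 6W 24 were lower at that p, against 7.14%, led by Aspm of the spindle poles (-0.65) and the centrosome kinase Nek2 (-0.38).

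Of 47 other replication genes, 8 fell from 2W to 3M and none rose, against 2.63% of all genes tested called lower, with a median of -0.28. They included Clspn, the adaptor of the replication checkpoint (-0.94), Atad5, which unloads Pcna (-0.71), Wdhd1 of the replisome (-0.56), Rpa3 of the single strand binding complex (-0.67), the histone chaperone Asf1b (-0.49) and Chtf18 of a clamp loader (-0.65). From 2W to 6W 11 of the 47 were lower at an unadjusted p under 0.05, against 7.14% of all genes tested, led by Wdhd1 (-0.48) and Chtf18 (-0.61). From 6W to 3M 5 were, against 6.25%, led by Clspn (-0.55) and Rpa3 (-0.43), and the median of the list was -0.056.

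Among 16 G1 cyclins, kinases and E2F partners, 4 fell and 1 rose from 2W to 3M, against 2.63% of all genes tested called lower and 6.8% called higher. Ccnd3, the D cyclin that immature thymocytes need to expand, fell by 1.06 (SE 0.15), E2f2 by 0.63, and the repressors E2f8 and E2f7 by 0.58 and 0.60, while Ccnd1 rose by 0.81 (SE 0.12). E2f2 (-0.47) and Ccnd1 (0.53) had the smallest p from 2W to 6W, and Cdk6 (0.43) and E2f6 (0.39) from 6W to 3M. Among 13 CDK inhibitors and pocket proteins, Cdkn1c (p57) fell by 1.67 (SE 0.23) and no other passed. Its log2 fold change was -0.97 from 2W to 6W and -0.69 from 6W to 3M, beside Tob1 at 0.29 in the first and Cdkn2d (p19) at -0.35 in the second. The median of the 13 from 2W to 3M was -0.0016.

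Replicates of 1 age did not lie equally close. Ccne2 had 52.8 and 79.0 CPM at 2W, 38.9 and 32.6 at 6W and 59.4 and 28.2 at 3M, so its 3M replicates differed by 1.08 on the log2 scale. In 7 of the 40 (Rrm2, Pola1, Ccne2, Ccna2, Bub1, Kif11 and Plk4) 2W replicate 2 was above 2W replicate 1 and 3M replicate 1 above 3M replicate 2, both by over 0.2 (log2). With 17.3% of all genes tested doing so, the members stood near the background share. Plk1 had the opposite gaps, with 109.4 and 83.6 CPM at 2W.

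The summed counts hide some differences between transcripts. The 40 genes were listed with 129 transcripts, of which 22 in 20 genes were assembled by the authors and not taken from Ensembl, and 5 genes had 1 transcript. Assembled transcripts held most of the counts of Mcm7 (59.9%), Ccne1 (77.8%) and Plk4 (56.6%). In Cenpe their share was 6.55% and 59.8% in the 2W libraries, 23.9% and 6.73% at 6W, and 64.4% and 21.6% at 3M, so the shares of the ages overlapped widely. Without assembled transcripts the log2 fold change of Cenpe from 2W to 3M was -1.47 and no longer passed (edgeR adjusted p = 0.119), and 8 of the 40 genes were called. Unless stated otherwise, changes between ages are those of the summed values, which still include the assembled transcripts.

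Circular RNAs, counted by reads across a back-spliced junction, were listed for 17 of the 40 genes (10 S phase, 7 mitotic), 43 in all, with 811 junction counts. Of the 43, 2 are typed as antisense to the gene, 1 each of Mcm2 and Rrm1 with 7 counts together, and Mcm2 has no other. A single circRNA held 487 of these counts (60.0%). It comes from annotated exons of Bub1b, of the spindle checkpoint that restrains Cdc20, at chr2:118631759-118635277 on the plus strand, with a spliced length of 392 bases. The table names no build, and the position lies inside Bub1b as RefSeq places it on GRCm38.p6. It had 66 and 65 junction counts at 2W, 123 and 135 at 6W and 42 and 56 at 3M, out of 10663 to 21914 junction counts of all circRNAs in a library.

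On the RPM scale, scaled to 1000000 junction counts a library, this circRNA stood at 6190 and 5847 at 2W, 6564 and 6160 at 6W, and 3775 and 3637 at 3M. The 3M libraries were the lowest, and the highest upper bound of their 95% Wilson intervals, 5099, lay above the lowest lower bound of the 2W libraries, 4590, so those intervals overlapped. Those of 6W began at 5207 and 5504, above both 3M intervals. These intervals cover counting error only. No test of the junction counts was made. Bub1b mRNA had 251.2 and 224.3 CPM at 2W, 218.5 and 198.5 at 6W and 176.9 and 176.5 at 3M. The ages did not overlap, but Bub1b was called in no comparison (edgeR adjusted p = 0.407 from 2W to 6W, 0.397 from 6W to 3M and 0.0649 from 2W to 3M). All other circRNAs of the 40 genes together had 3376 and 3778 RPM at 2W, 3735 and 3514 at 6W and 4404 and 3248 at 3M. These ranges overlapped. Another 13 of the 43 had 3 counts or fewer over all libraries.

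**Figure D5:**
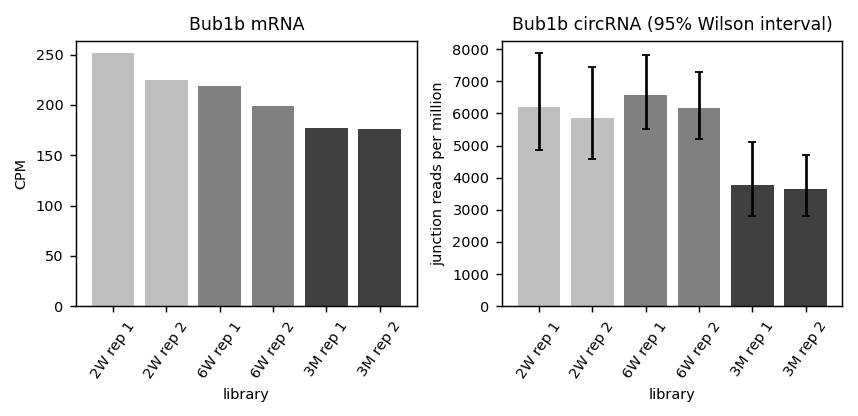
Bub1b mRNA (CPM, left) and its most counted circRNA (RPM of all junction counts with 95% Wilson intervals, right) in each of the 6 libraries. The circRNA is at 5847 to 6564 in the 2W and 6W libraries and at 3637 and 3775 at 3M. The mRNA lies between 176.5 CPM (3M) and 251.2 CPM (2W) and was called in no comparison.

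Markers of several cell types moved between the same ages. DP thymocyte markers summed to 17420 and 19070 CPM at 2W, 16160 and 16190 at 6W and 13860 and 14000 at 3M. The largest part of that sum was Rag1, with 9398 and 11170 CPM at 2W, 8343 and 8098 at 6W and 7712 and 7544 at 3M. From 2W to 6W 6 of the 10 were fitted lower and 4 higher, and from 6W to 3M all 10 were fitted lower. Between 2W and 3M 5 of 10 fell, against 2.63% of all genes tested, among them Rag1, Cd4 and Cd8a. Markers of immature double negative thymocytes summed to 1185 and 1183 CPM at 2W, 656.5 and 679.2 at 6W and 736.5 and 810.6 at 3M, with 1 of 8 (Notch1) called lower at 6W, against 0.125% of all genes tested, and 2 of 8 (Notch1 and Ptcra) at 3M, against 2.63%. Most of that sum was Notch1, with 885.8 and 864.7 CPM at 2W, 453.0 and 480.3 at 6W and 500.6 and 565.1 at 3M. From 2W to 6W Notch3, Ptcra and Il2ra had log2 fold changes of -0.82, -0.62 and -0.61 and unadjusted p of 0.00174, 0.0113 and 0.0038, but were not called by edgeR. Kit, Erg and Hes1 overlapped between these ages, and Lyl1 was fitted at 0.98 and not called. Il2ra had 103.2 and 113.3 CPM at 2W, 71.7 and 70.4 at 6W and 112.7 and 91.2 at 3M. Myeloid markers went from 226.7 to 250.3 CPM at 2W to 494.0 to 535.2 at 6W and 549.0 to 570.6 at 3M, and adipocyte markers from 32.5 to 35.4 CPM at 2W to 87.9 to 96.1 at 6W and 103.5 to 188.5 at 3M. Mature thymocyte markers summed to 310.3 to 312.2 CPM at 2W and 415.6 to 439.4 at the later ages, thymic epithelial markers to 1060 to 1482 and B cell markers to 43.1 to 70.4 over all libraries. Stroma and vessel markers summed to 569.1 and 589.7 CPM at 2W and 358.0 and 342.7 at 3M, with Col1a1 and Col3a1 called lower and Pdgfra higher. The part that these shifts in cell make-up had in the levels of the 40 genes was not tested.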

How the data were processed

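RNA was taken from whole thymus, depleted of ribosomal RNA and sequenced as strand-marked libraries, per the study's methods. The authors deposited a transcript table with estimated counts (expected counts that need not be whole, 45.1% of values) and FPKM, and a circRNA table with junction counts. The submitters' processing notes list Bowtie 0.12.2 and the build mm8 with no role, and the mRNA aligner and the use of strand in counting are not given in the sources used here. The lncRNA and miRNA tables were not used.

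Estimated counts were summed per exact gene symbol over 77525 transcripts, of which 372 had no symbol and were left out (0.700% to 1.20% of counts), then rounded. edgeR 4.0.16 (R 4.3.3) was run on all 6 libraries with age as the one factor: TMM scaling, filterByExpr by age, quasi-likelihood F test, Benjamini-Hochberg adjustment over 15199 genes, with 3 residual degrees of freedom. A gene was called at an adjusted p under 0.05. Log2 fold changes of DESeq2 1.42.0 and of limma 3.58.1, on log2(FPKM + 1), were alternatives, beside other scalings, filters, symbol sums and left-out libraries. Python 3.11.15 read promoters and circRNAs. No fold of the circRNAs was tested.

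The members and lists were chosen with earlier results of these data known. All 40 members are accounted for. Values by library are given for Mcm2, Pcna, Rrm2, Ccne1, E2f1, Mki67, Top2a, Ccnb1, Cdk1, Plk1 and Cdc20, for the 4 S phase and 4 mitotic members with the smallest p in each comparison and for called members. From other lists up to 6 called genes by smallest p are named, or the 2 with the smallest p where none was called. Other members described by library (Kif11, Ccne2, Bub1b) were chosen after their values were seen. The values of 1 marker gene are not reported here.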

Additional observations from a re-analysis of the deposited data

How the results depend on the processing

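With 2 libraries an age and 3 residual degrees of freedom, calls depended strongly on the settings while the direction of the medians did so little. The exception was the S phase median from 6W to 3M, near 0 throughout. Members called at an adjusted p under 0.05 from 2W to 6W, 6W to 3M and 2W to 3M numbered 0, 0 and 11, with DESeq2 5, 3 and 18. From 2W to 3M the count was 0 with only the 4 libraries compared, 7 with limma on FPKM and 0 to 10 with 1 library left out. All genes called numbered 124, 0 and 1433. From 2W to 6W this was 823 with DESeq2, 243 with total counts as the scaling, 298 without the filter, 430 with 4 libraries, 257 with letter case joined, 4 without assembled transcripts, 219 with limma and 0 to 407 with 1 library left out. From 6W to 3M it was 332 with DESeq2, 1 without the filter and with letter case joined, 3 with limma and 0 to 3 with 1 library left out. From 2W to 3M it was 398 with 4 libraries, 922 without assembled transcripts and 5 to 1326 with 1 library left out.

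Members with an unadjusted p under 0.05 numbered 17 from 2W to 6W (9 with limma, 4 to 26 with 1 library left out) and 7 from 6W to 3M (2 to 9 with 1 library left out). Members past the study threshold numbered 0, 0 and 1, with 0 to 1, 0 to 1 and 0 to 3 with 1 library left out, 2 from 6W to 3M without assembled transcripts and 0 from 2W to 3M with limma. The S phase median from 2W to 6W was -0.24 with total counts and -0.21 with limma, and from 2W to 3M -0.23, -0.22 and, without assembled transcripts, -0.24. With 1 library left out it ran from -0.34 to -0.28, from -0.014 to 0.077 and from -0.30 to -0.25 in the 3 comparisons, and the mitotic median from -0.41 to -0.27, from -0.35 to -0.23 and from -0.68 to -0.50. The log2 fold change of Tyms from 6W to 3M turned to 0.11 without assembled transcripts and that of Mcm2 from 2W to 3M to 0.053 without 3M replicate 1.

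The replicate numbers did not pair the libraries: deviations of same-numbered libraries had correlations of -0.084 (6W and 2W), 0.28 (3M and 6W) and -0.17 (3M and 2W). With the replicate number as a replicate block, genes called numbered 0 from 2W to 6W and 411 from 2W to 3M, members called from 2W to 3M numbered 1, and 8 members had an unadjusted p under 0.05 from 2W to 6W. Pairing the numbers crosswise between 3M and 2W, chosen after seeing the data, was fitted on the 4 libraries of these ages only. It called 2195 genes and 21 members, where the fit of 4 libraries without pairing called 0 members. The cause of these differences was not tested.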
